A study of Homo sapiens with 24 samples.

Results

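CD44, CD24 and 8 further genes that mark or maintain stem-like breast cancer cells are described here in 3 estrogen receptor-positive (ER+) human breast cancer lines grown at low or high glucose. The 10 genes were EPCAM, PROM1, ITGA6, SOX2, SOX4, SOX9, KLF4 and KLF5 beside CD44 and CD24, and they were chosen with earlier results of these data known. Rows of the expression table were taken by gene symbol, which found 9 of the 10 genes among 18889 genes. No row carried the symbol CD24, and a row named CD24P4, after a processed pseudogene of CD24, is given beside the 9 genes as an uncertain reading of CD24. Because the same measurements were used to choose the genes, their values and changes are a description without p-values.

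The lines were HCC1500, ZR-75-30 and MDA-MB-175, all established breast carcinoma lines with no added gene or deletion named in the labels. Cells of each line were kept for 48 hours at 5 mM glucose (LG, the control) or 25 mM glucose (HG, a model of hyperglycemia). Each of the 6 groups had 4 cultures, so that 24 RNA-Seq profiles were compared, and each line is 1 established population rather than a sample of tumors. Nothing in the labels says that the cultures came from separate passages, and the spread between them may therefore be technical.

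In breast cancer, cells with much CD44 and little CD24 on their surface start tumors and grow as spheres more readily than other cells, and they are commonly called stem-like. CD44 is a receptor for hyaluronan, an extracellular matrix sugar, while CD24 is a small, heavily glycosylated surface protein typical of luminal cells. The SOX and KLF families are DNA-binding proteins that set cell identity, and SOX2 and KLF4 belong to the factors that return differentiated cells to pluripotency. In bulk RNA, a lower level can mean fewer cells that make a transcript or less of it in each cell, and these cannot be told apart.

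The recovered reads per sample lay between 9140024 and 17998819, and 3 reads, taken as the detection floor, were worth a normalized value of 0.953 to 2.29. Of 10 luminal markers fixed for checking the labels, 9 had a mean of at least 10 in every group of ZR-75-30 and MDA-MB-175, and 10 did in HCC1500. ESR1, which encodes the estrogen receptor, was among them in every group. Summed luminal markers in ZR-75-30 lay at 74687 to 79858 at LG and at 53083 to 60494 at HG, without overlap, and overlapped between conditions at 35081 to 78869 in the other lines. Basal or myoepithelial markers summed to 18.2 to 22.2 at LG and 41.6 to 52.7 at HG in ZR-75-30, again without overlap, and overlapped at 30.1 to 37.8 in HCC1500 and at 306 to 356 in MDA-MB-175. Fibroblast markers were at 101 to 117 at LG and 78.6 to 97.3 at HG in ZR-75-30, at 115 to 140 and 141 to 180 in MDA-MB-175, and overlapped at 222 to 295 in HCC1500. Leukocyte markers, 3 of 6 with a row, summed to 5.54 to 6.84 at LG and 33.6 to 43.9 at HG in ZR-75-30. In HCC1500 they summed to 2.15 to 5.08 and 11.2 to 29, and in MDA-MB-175 they overlapped at 12 to 23.7. Only CD68 in ZR-75-30 and CD14 in HCC1500 reached a mean of 10, both at HG. Endothelial markers, 4 of 5 with a row, summed to 75.3 to 95.3 in MDA-MB-175, where CDH5, VWF and KDR reached 10. They summed to 10.7 or less in ZR-75-30 and to 1.53 or less in HCC1500. The part of these marker genes in the changes below was not tested.

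The library of HCC1500 HG replicate 3 stood apart. It correlated with the other 3 cultures of its group at a mean Pearson r of 0.944 across 13310 genes, whereas the other 23 libraries reached 0.99 to 0.995 with theirs. In it, 23.9% of those genes lay more than 1 log2 unit from its group, and these deviations had a Spearman correlation of -0.54 with exon length across genes. Among the other 23 libraries this correlation ran from -0.3 in MDA-MB-175 HG replicate 1 to 0.23 in MDA-MB-175 HG replicate 3. Results in HCC1500 are given with and without HCC1500 HG replicate 3 because it stood apart. The HCC1500 HG cultures also had fewer reads (9423472 to 12140912) than the LG cultures (13190982 to 17998819).

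The sequence behind the CD24P4 row is shown because it decides what that row can measure. The row's gene, ENSG00000185275, is a processed pseudogene of 243 bases at chrY:21154353-21154595 on the minus strand of GRCh37, within the gene TTTY14. It is printed from GRCh37, 5′ to 3′ on its own strand, all in lower case since no part is singled out.
CD24P4: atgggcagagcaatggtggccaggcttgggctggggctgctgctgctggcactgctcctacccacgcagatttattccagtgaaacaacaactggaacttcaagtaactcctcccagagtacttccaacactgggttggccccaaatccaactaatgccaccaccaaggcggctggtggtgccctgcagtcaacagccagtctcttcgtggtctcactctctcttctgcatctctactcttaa
Of GRCh37, only chromosomes 1, 3, 6, 15 and Y were searched. With these 243 bases, the best match on chromosome 6, where RefSeq places CD24 in GRCh38.p14, covered 31 bases at 90.3% identity. Copies on chromosomes 15, 1 and 3 matched at 89.4%, 79.7% and 75.2%. Conversely, the 300 bases around the second listed CD24 start site in GRCh38.p14 matched GRCh37 at chrY:21154751-21155050 with 98.3% identity over 300 bases. On chromosome Y, the window at the first start site matched over 145 bases (97.9%) and that at the third over 19 (94.7%). Among the chromosomes searched, the window at the second start site thus had its closest match next to the pseudogene. Reads of gene and pseudogene cannot be told apart in this row. CD24 was not analysed under its own symbol.

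Promoters are shown for CD44, SOX2 and KLF4, which were among the genes whose levels changed most with glucose. Each is a RefSeq window on GRCh38.p14 that runs from 250 bases before to 50 bases after the first listed start site. Capitals mark the E-box CACGTG, which MYC binds and which is part of the response element of the glucose-sensing factors MondoA and ChREBP, and the GC box GGGCGG, which SP and KLF proteins bind, each read on both strands. The CD44 window is chr11:35138921-35139220 on the plus strand, SOX2's is chr3:181711675-181711974 on the plus strand and KLF4's is chr9:107489720-107490019 on the minus strand.
CD44: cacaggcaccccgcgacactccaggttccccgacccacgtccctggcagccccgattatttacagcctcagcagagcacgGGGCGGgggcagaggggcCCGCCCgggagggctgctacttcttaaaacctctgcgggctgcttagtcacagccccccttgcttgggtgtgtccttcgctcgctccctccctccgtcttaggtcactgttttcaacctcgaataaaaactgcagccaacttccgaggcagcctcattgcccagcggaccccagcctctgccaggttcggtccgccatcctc
SOX2: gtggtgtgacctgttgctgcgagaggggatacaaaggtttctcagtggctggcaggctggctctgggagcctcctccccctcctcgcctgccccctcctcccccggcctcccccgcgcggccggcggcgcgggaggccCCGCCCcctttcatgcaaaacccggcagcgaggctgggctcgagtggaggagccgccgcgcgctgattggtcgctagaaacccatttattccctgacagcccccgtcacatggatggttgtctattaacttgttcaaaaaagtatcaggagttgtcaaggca
KLF4: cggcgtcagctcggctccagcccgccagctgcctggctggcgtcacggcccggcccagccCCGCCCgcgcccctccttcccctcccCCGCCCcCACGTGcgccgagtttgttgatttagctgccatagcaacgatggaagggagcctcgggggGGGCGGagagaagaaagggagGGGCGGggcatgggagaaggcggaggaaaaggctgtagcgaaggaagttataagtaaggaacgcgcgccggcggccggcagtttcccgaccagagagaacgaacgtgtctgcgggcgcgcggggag
In KLF4 the E-box began 157 bases before the start site (position -157), next to GC boxes at -190, -164, -97 and -76. The CD44 window held GC boxes at -170 and -152 and no E-box, and SOX2's held 1 GC box at -112 and no E-box. At the first listed start site of the 8 genes with a RefSeq window, CD24 included, 2 held an E-box (KLF4 and ITGA6, there at -101) against 7.4% of 27305 promoters. The GC box was found in 5 of 8, against 44.6% of all promoters. EPCAM and SOX9 had no window in the table used. For the other motifs searched, the counts were 3 of 8 for the CACCC box (58.9% of all promoters), 1 of 8 for the SOX core ACAAAG (16%), 0 of 8 for the AP-1 site TGANTCA (7.8%) and 2 of 8 for TATAAA (12%), with matches to different motifs allowed to overlap. Windows at further listed start sites, which these counts leave out, also held an AP-1 match (PROM1, at -189), GC boxes in PROM1 and KLF5, the CACCC box in PROM1 and ITGA6, and the SOX core in CD24. A match is a string of letters, not a measured site.

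Between 4 and 6 of these genes changed with glucose in each line, CD44 and KLF5 in opposite directions between lines, while SOX2 fell and SOX4 rose wherever they were called. A gene is called here, and said to have risen or fallen, when its adjusted p was under 0.05 in a fit across all tested genes of that line (limma on log2(value + 1)). In MDA-MB-175, 5 of 9 genes were called, 3 higher and 2 lower at HG, where 25.7% of all 17029 tested genes were called, 11.9% higher and 13.7% lower. ZR-75-30 had 6 of 9 called, 4 higher and 2 lower, against 46% of 15834 genes (23.4% higher, 22.7% lower). HCC1500 had 4 of 8 tested genes called, 2 higher and 2 lower, against 20.5% of 16361 genes (7.46% higher, 13% lower). Of the genes called in HCC1500, 36.4% were higher at HG, and 48.9% were when the libraries were rescaled by median-of-ratios. Without HG replicate 3 the HCC1500 count was 7, 4 higher and 3 lower, against 58.5% of 16235 genes (20.9% higher, 37.7% lower). LG and HG cultures did not overlap for 7 of the 9 genes in MDA-MB-175 (26.6% of all tested genes), 7 in HCC1500 (32.4%) and 6 in ZR-75-30 (42%). Without HG replicate 3 the HCC1500 count stayed at 7, where 58.1% of genes did not overlap. Since the genes were chosen on these contrasts, nothing is read from the counts.

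**Figure D1:**
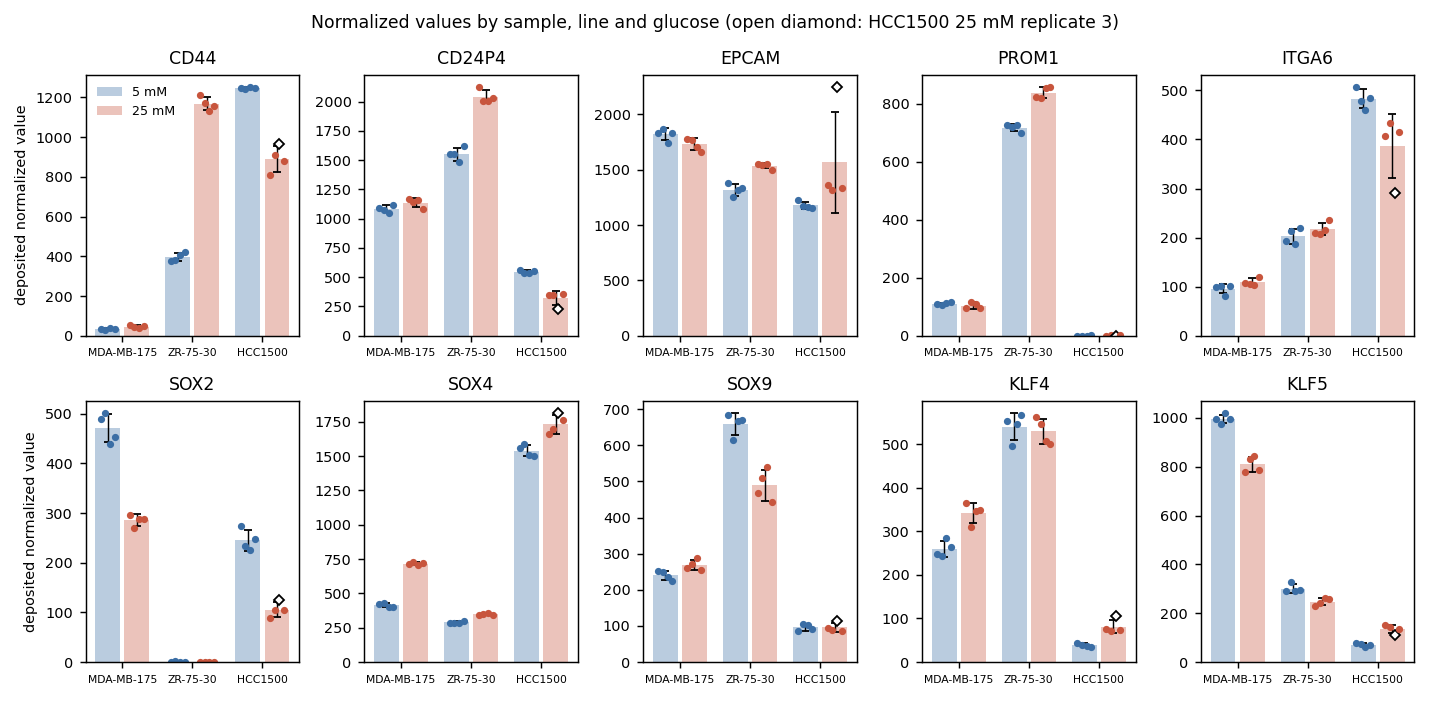
Deposited normalized value of each gene and of the CD24P4 row in every culture (points), by line and glucose; bars are means of 4 cultures and error bars SDs, and the open diamond is HCC1500 HG replicate 3. CD44 in ZR-75-30 lay at 377 to 420 at 5 mM and 1133 to 1210 at 25 mM, while SOX2 in ZR-75-30 and PROM1 in HCC1500 were at or near 0.

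CD44 (ENSG00000026508, chr11:35160429-35253949, GRCh37) rose in ZR-75-30 and MDA-MB-175 and fell in HCC1500. In ZR-75-30 its LG values were 377, 380, 405 and 420, and its HG values 1210, 1173, 1133 and 1155. The HG mean of 1168 ± 32.4 (SD, n = 4) was 2.95 times the LG mean of 396 ± 20.5, a log2 change of 1.56 ± 0.04 (SE). No culture came near the other condition, and this was the largest change of any of the 9 genes in any line.

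In MDA-MB-175, CD44 was weakly expressed, with 33.7, 28.8, 37.6 and 34.6 at LG and 54.9, 43.2, 38.6 and 48.4 at HG. The lowest HG culture lay just above the highest LG culture, and the log2 change was 0.44 ± 0.14. These values rest on 43 to 132 reads per culture. The call was lost without HG replicate 1 (log2 change 0.36), HG replicate 4 (0.42), LG replicate 1 (0.44) or LG replicate 2 (0.37), and with no filter on low values (0.44).

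HCC1500 had the highest CD44 at LG, with 1245, 1244, 1252 and 1247. At HG the values were 807, 909, 967 and 879, a log2 change of -0.49 ± 0.08, and -0.53 ± 0.04 without replicate 3, the culture at 967. All HG cultures thus lay below all LG cultures. In order of their means, the groups ran from HCC1500 LG (1247) through ZR-75-30 HG (1168), HCC1500 HG (890) and ZR-75-30 LG (396) to MDA-MB-175 HG (46.3) and LG (33.7), with no overlap between neighbours. The difference of HCC1500 minus ZR-75-30 was 1.66 ± 0.09 log2 units at LG and -0.39 ± 0.09 at HG, so the order of these lines was reversed at high glucose, also without HG replicate 3 (-0.43 ± 0.08). The glucose change differed between the 3 lines in the interaction test across all genes, in which 6 of the 9 genes and 29.3% of 18144 genes were called. Without HCC1500 HG replicate 3 it called 8 of the 9, and 48.6% of all genes.

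The CD24P4 row rose with CD44 in ZR-75-30 and fell with it in HCC1500. In ZR-75-30 it read 1550, 1552, 1482 and 1620 at LG and 2125, 2004, 2006 and 2029 at HG, a log2 change of 0.40 ± 0.04. In HCC1500 it read 561, 534, 540 and 553 at LG and 349, 349, 232 and 353 at HG. The change there was -0.79 ± 0.14, and -0.64 ± 0.04 without replicate 3, whose 232 lay below the other 3 HG cultures. MDA-MB-175 had means of 1085 ± 29.2 and 1137 ± 38.1 with overlapping cultures, and was not called.

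The balance between CD44 and the CD24P4 row, the difference of their log2(value + 1) within a culture, was chosen after the CD24P4 row had been identified. It set the lines far apart, with LG means of 1.19 ± 0.03 in HCC1500, -1.97 ± 0.08 in ZR-75-30 and -4.98 ± 0.17 in MDA-MB-175 (SD, n = 4). At HG it was higher by 1.16 ± 0.04 (SE) in ZR-75-30, from -2.04 to -1.87 at LG to -0.82 to -0.77 at HG. MDA-MB-175 moved by 0.37 ± 0.14 and its groups overlapped. The HCC1500 groups overlapped as well, with a difference of 0.30 ± 0.19 that became 0.11 ± 0.05 without HG replicate 3. Transcripts do not give the surface protein by which CD44-high, CD24-low cells are sorted.

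**Figure D2:**
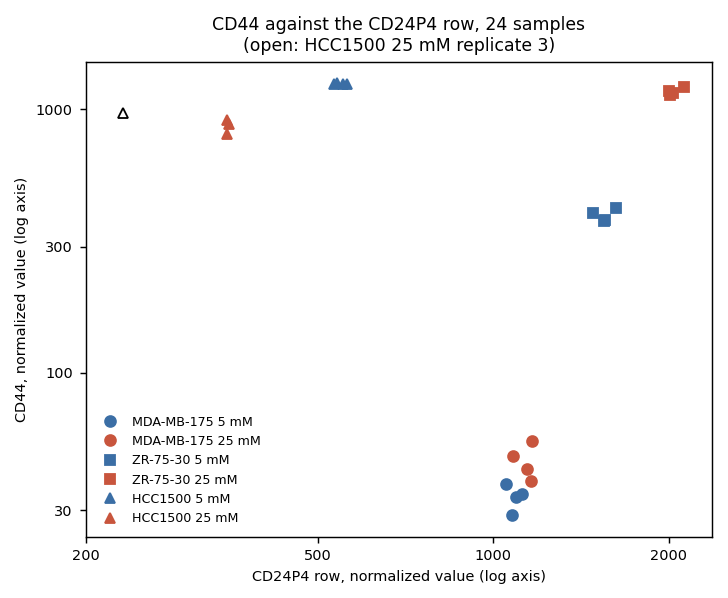
CD44 against the CD24P4 row in 24 cultures, both as deposited normalized values on log axes; shapes are lines, colors are glucose, and the open triangle is HCC1500 HG replicate 3. In ZR-75-30 the HG cultures moved up and to the right of the LG cultures, in HCC1500 they moved down and to the left, and in MDA-MB-175 CD44 was at 54.9 or less in all 8 cultures.

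EPCAM (ENSG00000119888, chr2:47572297-47614740), a cell adhesion protein of epithelial cells, was abundant in every line. It rose in ZR-75-30, from 1377, 1252, 1312 and 1333 to 1550, 1541, 1551 and 1501, a log2 change of 0.22 ± 0.04. In HCC1500 the LG cultures read 1226, 1172, 1160 and 1156 and the HG cultures 1364, 1318, 2247 and 1338, where the 2247 belonged to replicate 3. The change of 0.37 ± 0.17 was not called with that library and was called without it, at 0.19 ± 0.03. Both conditions overlapped in MDA-MB-175, at 1739 to 1863 and 1664 to 1781. At HG, EPCAM was not called in any pair of lines with all libraries, where the culture at 2247 made the HCC1500 group overlap both others. Without it the groups did not overlap, MDA-MB-175 being highest and HCC1500 lowest, and every pair was called, with HCC1500 at -0.37 ± 0.03 log2 units from MDA-MB-175 and -0.20 ± 0.03 from ZR-75-30.

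PROM1 (ENSG00000007062, chr4:15964699-16086001) encodes CD133, a membrane protein of cell protrusions used as a stem cell marker. It rose in ZR-75-30, from 699 to 728 at LG to 820 to 856 at HG, a log2 change of 0.22 ± 0.04 with no overlap. MDA-MB-175 expressed less, with means of 111 ± 4.17 and 104 ± 11.1 that overlapped. In HCC1500 the cultures had 0 to 3 reads at LG and 0 to 4 at HG, at or about the detection floor, and no fold is given. The lines thus ranged from near 0 to 838 in mean PROM1, a wider range than that of ITGA6 or EPCAM.

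ITGA6 (ENSG00000091409, chr2:173292082-173371187), the α6 integrin subunit that binds laminin, ran highest in HCC1500. Its cultures there read 507, 479, 460 and 485 at LG and 407, 434, 291 and 416 at HG. The change of -0.33 ± 0.13 was not called with replicate 3, at 291 the lowest culture, and was called without it at -0.20 ± 0.04. With the libraries rescaled by median-of-ratios and replicate 3 left out, an alternative added after seeing the data, it was -0.08 and not called. In MDA-MB-175 the groups did not overlap (82 to 101 and 103 to 120), but the change of 0.19 ± 0.09 was not called, and in ZR-75-30 it was 0.10 ± 0.07 with overlapping groups.

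SOX2 (ENSG00000181449, chr3:181429713-181432224), a pluripotency factor whose gene lies within an intron of SOX2-OT, fell in both lines that expressed it. MDA-MB-175 went from 489, 501, 440 and 454 at LG to 297, 269, 288 and 288 at HG, a log2 change of -0.72 ± 0.06. HCC1500 went from 274, 234, 225 and 247 to 87.9, 104, 125 and 104, a change of -1.22 ± 0.13, or -1.30 ± 0.08 without replicate 3. The HG mean was 0.606 of the LG mean in MDA-MB-175 and 0.43 in HCC1500, and in neither line did the conditions overlap. ZR-75-30 had 0 to 3 reads per culture, under the floor, so no fold is given. The difference between lines in the SOX2 change was not called with all libraries and was called without HCC1500 HG replicate 3. That test also included ZR-75-30, which was under the floor, so it does not compare MDA-MB-175 and HCC1500 alone.

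SOX4 (ENSG00000124766, chr6:21593982-21598850), a factor that acts in TGF-β responses and progenitor survival, was higher at HG in every line, without overlap between conditions. In MDA-MB-175 it rose from 422, 429, 403 and 402 to 716, 726, 707 and 722, a log2 change of 0.79 ± 0.04. ZR-75-30 rose from 285, 284, 285 and 299 to 340, 347, 356 and 346, a change of 0.27 ± 0.05. HCC1500 had the most SOX4, with 1560, 1587, 1508 and 1504 at LG and 1660, 1694, 1812 and 1765 at HG. Its change of 0.17 ± 0.07 was not called by limma with all libraries and was called without HG replicate 3, at 0.15 ± 0.03. With all libraries it was called by DESeq2 (0.23), and by limma with no filter on low values, with estimated sample weights or in a fit on all 24 samples (0.15 to 0.17). The rise in MDA-MB-175 exceeded those in the other lines, and the interaction was called for SOX4 with and without replicate 3.

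SOX9 (ENSG00000125398, chr17:70117161-70122557), a progenitor factor of many epithelia, fell in ZR-75-30, the line with the most of it. Values there were 683, 614, 666 and 670 at LG and 467, 509, 539 and 442 at HG, a log2 change of -0.43 ± 0.06 with no overlap. In MDA-MB-175 the means were 240 ± 12.9 and 268 ± 14.1, without overlap, and the change of 0.16 ± 0.06 was not called. HCC1500 had means of 95.9 ± 9.21 and 96.2 ± 12.9, with 115 in HG replicate 3, and a change of 0.00 ± 0.13, or -0.09 ± 0.09 without it, that was not called.

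KLF4 (ENSG00000136826, chr9:110247133-110252763), whose promoter is printed above, rose in the lines with less of it and not in ZR-75-30. In HCC1500 the LG cultures read 44.1, 39.1, 35.7 and 35.3 and the HG cultures 76.1, 72.1, 105 and 72.5. The log2 change was 1.05 ± 0.15, and 0.92 ± 0.11 without the culture at 105, replicate 3. In MDA-MB-175 it rose from 249, 243, 284 and 263 to 364, 310, 347 and 348, a change of 0.40 ± 0.06. ZR-75-30 stayed at 495 to 566 and 501 to 562, a change of -0.03 ± 0.05 that was not called. Even after its rise, KLF4 stayed lowest in HCC1500, with a difference of -2.70 ± 0.10 log2 units from ZR-75-30 at HG, and of -2.83 ± 0.07 without replicate 3.

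KLF5 (ENSG00000102554, chr13:73629114-73651679), a factor of proliferating epithelium, rose in HCC1500 and fell in the other lines. In MDA-MB-175 the cultures read 994, 975, 1019 and 994 at LG and 779, 832, 842 and 787 at HG, a log2 change of -0.30 ± 0.04. ZR-75-30 went from 290, 327, 292 and 294 to 231, 242, 261 and 258, a change of -0.28 ± 0.06. HCC1500, with the least KLF5, went from 79.4, 72.7, 63.7 and 69.3 to 150, 144, 112 and 135, a change of 0.91 ± 0.13. Without replicate 3, at 112 the lowest HG culture, it was 1 ± 0.09. The lines kept their order at both conditions (MDA-MB-175, ZR-75-30, HCC1500), while the difference of HCC1500 minus ZR-75-30 went from -2.06 ± 0.08 log2 units at LG to -0.88 ± 0.08 at HG, or to -0.79 ± 0.06 without replicate 3.

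**Figure D3:**
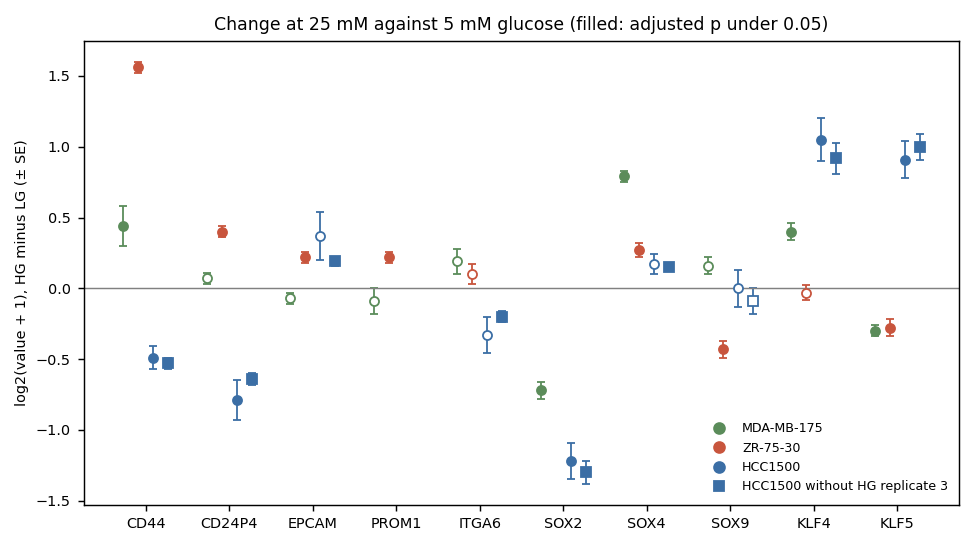
Log2(value + 1) at HG minus LG with its SE for each gene and the CD24P4 row in each line; filled symbols were called, open ones were not, squares are HCC1500 without HG replicate 3, and SOX2 in ZR-75-30 and PROM1 in HCC1500 are left out because they were at or about the detection floor. CD44 ran from -0.49 to 1.56 over the lines, SOX4 lay above 0 in all 3, and KLF5 changed sign between HCC1500 and the other lines.

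Between lines, the levels of these genes differed in nearly every pair. At LG, 9 of 9 were called between ZR-75-30 and MDA-MB-175, where 63.8% of 18144 genes were, 9 of 9 between HCC1500 and MDA-MB-175 (72.6%) and 8 of 9 between HCC1500 and ZR-75-30 (73%). The exception was EPCAM in the last pair, at -0.16 ± 0.11 log2 units. At HG, 8 of 9 were called in each pair, where 65.8%, 73.5% and 73.7% of genes were. Without HCC1500 HG replicate 3, an alternative added after seeing the data, 9 of 9 were called in each pair. The background was then 72.1%, 79.5% and 79% of 18127 genes at LG and 73.8%, 78.4% and 78% at HG, and EPCAM in HCC1500 and ZR-75-30 at LG still differed by -0.16, with an SE of 0.03. Levels of different genes were compared only roughly, per kilobase of all annotated exons of a gene, which can be longer than the transcripts made. On this scale EPCAM led in each line at LG, with 485 in HCC1500, 543 in ZR-75-30 and 748 in MDA-MB-175. KLF5 (271) and SOX2 (188) followed in MDA-MB-175, SOX9 (167) and KLF4 (147) in ZR-75-30, and SOX4 (316) and CD44 (125) in HCC1500. CD44 was the lowest of the 9 per kilobase in MDA-MB-175, at 3.37 over its 9992 annotated exon bases. The CD24P4 row is left out of this order because its 243 bases are not the length of the CD24 transcript.

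Genes most like CD44 were found by Pearson r of log2(value + 1) over 24 cultures among 13309 genes with a mean of at least 10. They were HECTD3 (r = 0.991), ECHDC2 (0.984) and HDLBP (0.982), all highest in HCC1500 or ZR-75-30 and lowest in MDA-MB-175. After each line's mean was subtracted, they were CALCOCO1 (0.967), ANXA3 (0.963) and GAB2 (0.941). The subtraction leaves the glucose response and the spread between cultures. HCC1500 HG replicate 3 was included, and no r is given without it. GAB2, a signaling adaptor, went from a mean of 89.4 at LG to 290 at HG in ZR-75-30. Its HCC1500 means were 343 at LG and 252 at HG. The cultures share lines and libraries, and the correlations are a description.

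Other genes of stem-like cells were counted in 10 lists, without the genes above, which were also drawn up with earlier results known. Of 218 genes, 197 had a row. In MDA-MB-175, 40 of 180 tested genes were higher at HG and 34 lower (41.1% called, all genes 25.7%). ZR-75-30 had 48 of 166 higher and 36 lower (50.6%, all genes 46%). HCC1500 had 18 of 163 higher and 32 lower (30.7%, all genes 20.5%), and without HG replicate 3, 44 of 162 higher and 65 lower (67.3%, all genes 58.5%). The median log2 change was -0.03, 0.08 and -0.06 in the 3 lines, beside -0.02, 0.01 and -0.06 over all genes tested. No test of a list was run. Only called genes were named, so an adjusted p under 0.05 was a condition of naming. The adjusted p-values of named genes are therefore a description. A gene had to reach a mean of 10 in 1 condition to be named, and ENG, ZEB1, DLL4 and ANKRD1 did so at HG alone, so their LG and HG means are given without a test. Each HCC1500 gene given with an adjusted p below kept its direction and an adjusted p under 0.05 without HG replicate 3.

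**Figure D4:**
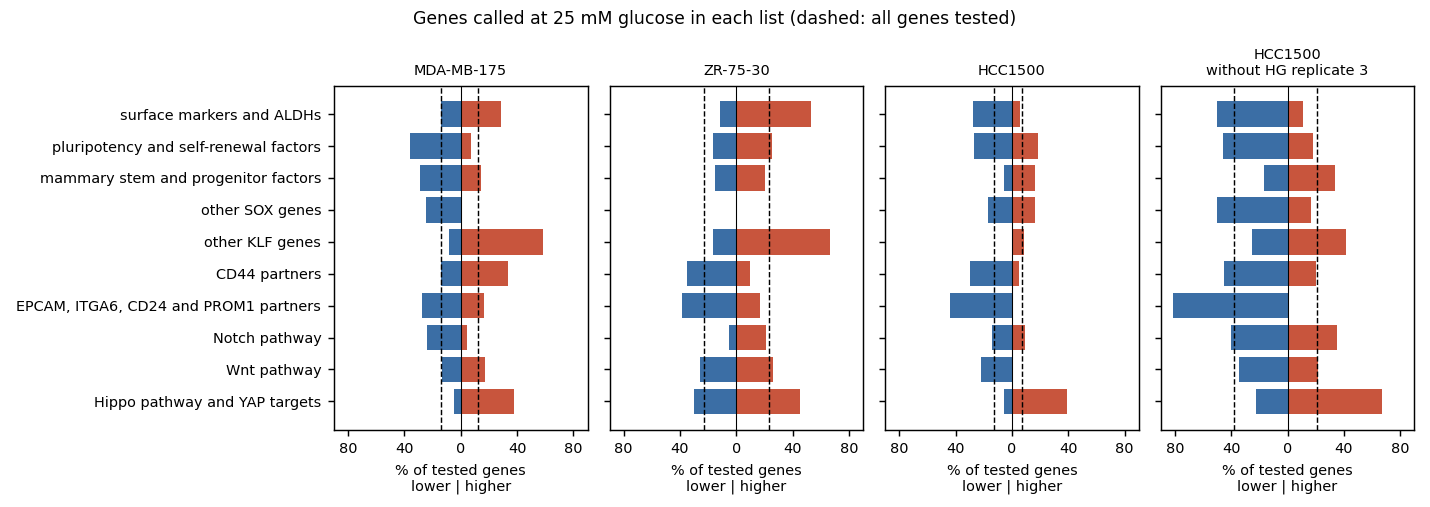
Share of the tested genes of each list that were called higher (red, to the right) or lower (blue, to the left) at HG, in percent, by line; dashed lines give the shares of all tested genes in each direction. Of 12 other KLF genes, 8 were higher in ZR-75-30 and 7 in MDA-MB-175, and no gene of the EPCAM, ITGA6, CD24 and PROM1 partner list was called higher in HCC1500 by limma.

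Among other surface markers and aldehyde dehydrogenases (enzymes whose activity marks stem-like breast cells), 9 of 17 tested genes rose and 2 fell in ZR-75-30, 6 of 21 rose and 3 fell in MDA-MB-175, and 1 of 18 rose and 5 fell in HCC1500 (2 and 9 without HG replicate 3). The called share was 64.7% in ZR-75-30 (all genes 46%), 42.9% in MDA-MB-175 (25.7%) and 33.3% in HCC1500 (20.5%). Without HG replicate 3 the HCC1500 share was 61.1% (58.5%). ALDH1A3, the main aldehyde dehydrogenase in many breast lines, rose in MDA-MB-175 from 699 ± 21.2 to 2231 ± 13.3, a log2 change of 1.67 ± 0.04 with an adjusted p of 6.2e-14. ALDH1A1 fell there from 48.2 ± 6.8 to 29.8 ± 3.51 (adjusted p = 0.0022). CXCR4, the chemokine receptor, fell in ZR-75-30 by 0.89 on the log2 scale (adjusted p = 2.7e-09). ENG, a TGF-β coreceptor, had means of 2.24 ± 2.17, about the detection floor, and 15.1 ± 3.22 there. In HCC1500, MCAM, an adhesion molecule, rose from 21.8 ± 2.89 to 103 ± 8.21 (adjusted p = 4.4e-05). DCLK1, a kinase and marker of tuft cells, fell there from 216 ± 7.74 to 85.7 ± 9.93 (adjusted p = 0.00012).

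Of the pluripotency and self-renewal factors, 3 of 12 rose and 2 fell in ZR-75-30, 2 of 11 rose and 3 fell in HCC1500 (2 and 5 without HG replicate 3), and 1 of 14 rose and 5 fell in MDA-MB-175. Calls thus covered 41.7% in ZR-75-30 (all genes 46%), 45.5% in HCC1500 (20.5%) and 42.9% in MDA-MB-175 (25.7%). Without HG replicate 3 the HCC1500 share was 63.6% (58.5%). ID3, an inhibitor of basic helix-loop-helix factors, rose in MDA-MB-175 by a log2 change of 0.84 ± 0.10 (adjusted p = 1.1e-05), while its relative ID2 changed by -0.65 ± 0.09 (adjusted p = 3.5e-05). ID1 rose in ZR-75-30 from 13.4 ± 5.12 to 22.4 ± 3.74 (adjusted p = 0.02). EZH2, a histone methyltransferase also known to follow proliferation, fell there from 164 ± 4.42 to 61.8 ± 4.84 (adjusted p = 2.3e-10). In HCC1500, SALL4 fell from 37 ± 4.31 to 15.2 ± 3.47 (adjusted p = 0.0025), as SOX2 did. MYC rose there from 257 ± 7.81 to 462 ± 126, a change of 0.81 with an adjusted p of 0.0091 and of 0.64 without HG replicate 3.

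The mammary stem and progenitor factors had 3 of 18 genes higher and 1 lower in HCC1500 (6 and 3 without HG replicate 3), 4 of 20 and 3 in ZR-75-30, and 3 of 21 and 6 in MDA-MB-175. The called share was 22.2% in HCC1500 (all genes 20.5%), 35% in ZR-75-30 (46%) and 42.9% in MDA-MB-175 (25.7%). Without HG replicate 3 the HCC1500 share was 50% (58.5%). ELF3, an epithelial ETS factor, rose in MDA-MB-175 from 2059 ± 153 to 3281 ± 101 (adjusted p = 5e-08) and in ZR-75-30 from 859 ± 22.3 to 1928 ± 144 (adjusted p = 1.1e-12). TWIST1 fell in MDA-MB-175 by 0.49 on the log2 scale (adjusted p = 0.019), and CBFB fell in ZR-75-30 from 149 ± 4.88 to 120 ± 11.6 (adjusted p = 0.0028). ZEB1, a repressor of epithelial genes, had low means of 4.22 ± 0.377 and 12.7 ± 4.31 in HCC1500.

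The KLF and SOX families hold many factors beside the named ones. Of 12 other KLF genes tested, 7 rose and 1 fell in MDA-MB-175 and 8 rose and 2 fell in ZR-75-30. Of all tested genes, 11.9% rose and 13.7% fell in MDA-MB-175, and 23.4% rose and 22.7% fell in ZR-75-30. For HCC1500 these shares were 7.46% and 13%, or 20.9% and 37.7% without HG replicate 3. Of the KLF genes 1 rose in HCC1500, KLF10, a TGF-β-induced factor, from 546 ± 22.1 to 886 ± 71.6 (adjusted p = 8e-04). Without HG replicate 3, 5 KLF genes rose and 3 fell. KLF15 rose in MDA-MB-175 (log2 change 0.82 ± 0.22, adjusted p = 0.011), KLF12 rose in ZR-75-30 (0.81 ± 0.16, adjusted p = 0.00036) and KLF2 fell there from 30.5 ± 5.76 to 15.2 ± 3.68 (adjusted p = 0.00095). Among other SOX genes, 2 of 8 fell in MDA-MB-175, and 1 of 6 rose and 1 fell in HCC1500 (1 and 3 without HG replicate 3). SOX13 was the one that fell in HCC1500 with all libraries, from 460 ± 8.84 to 320 ± 23.9 (adjusted p = 0.0027). In ZR-75-30 limma called 0 of 5, where 1 was lower at an unadjusted p under 0.05 and edgeR also called 0.

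Partners of CD44 include the enzymes that make and cut hyaluronan, its ligands, the proteins that tie it to the cytoskeleton and the proteases that release it. In HCC1500 1 of 20 rose and 6 fell (4 and 9 without HG replicate 3), in ZR-75-30 2 of 20 rose and 7 fell, and in MDA-MB-175 7 of 21 rose and 3 fell. Calls thus covered 35% in HCC1500 (all genes 20.5%), 45% in ZR-75-30 (46%) and 47.6% in MDA-MB-175 (25.7%). Without HG replicate 3 the HCC1500 share was 65% (58.5%). SLC7A11, the cystine carrier that a CD44 variant holds at the membrane, rose in MDA-MB-175 from 91.8 ± 10.3 to 262 ± 27.6 (adjusted p = 7.7e-09) and fell in ZR-75-30 from 559 ± 7.46 to 286 ± 20.3 (adjusted p = 5.6e-11). HAS3, a hyaluronan synthase, fell in MDA-MB-175 from 107 ± 13.4 to 69.2 ± 3.65 (adjusted p = 0.00021). ADAM10, which sheds CD44, rose in ZR-75-30 by 0.40 ± 0.04 on the log2 scale (adjusted p = 1.5e-07). HMMR, another hyaluronan receptor and also a mitotic gene, fell in HCC1500 from 149 ± 3.93 to 44.5 ± 2.35 (adjusted p = 2.8e-05).

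Of the partners of EPCAM, ITGA6, CD24 and PROM1, limma called 0 of 16 tested genes higher (all genes 7.46%) and 7 lower (13%) in HCC1500. The median log2 change of the 16 was -0.48 beside -0.06 over all genes. Without HG replicate 3, limma called 13 of 16 lower (all genes 37.7%) and 0 higher (20.9%). At an unadjusted p under 0.05 the higher count was also 0 in both, and by edgeR it was 0 with that library and 1 without it. ITGB4, which pairs with ITGA6, fell there from 24.6 ± 4.19 to 10.3 ± 4.37 (adjusted p = 0.017). In MDA-MB-175, 3 of 18 rose, CLDN1, a tight junction protein, from 74.3 ± 3.78 to 118 ± 6.04 (adjusted p = 1.8e-05), and 5 fell, among them LAMA3, a laminin chain, by 0.43 on the log2 scale (adjusted p = 0.0085). In ZR-75-30, 3 of 18 rose and 7 fell, with PROM2, the relative of PROM1, falling from 964 ± 41.1 to 731 ± 14.1 (adjusted p = 2e-07). The called share was 44.4% in MDA-MB-175 (all genes 25.7%) and 55.6% in ZR-75-30 (46%).

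Notch, Wnt and Hippo signaling act on mammary stem cells, and SOX and KLF genes are among their targets. Of the Notch genes, 4 of 19 rose and 1 fell in ZR-75-30, 2 of 21 rose and 3 fell in HCC1500 (7 and 8 of 20 without HG replicate 3), and 1 of 21 rose and 5 fell in MDA-MB-175. The called share was 26.3% in ZR-75-30 (all genes 46%), 23.8% in HCC1500 (20.5%) and 28.6% in MDA-MB-175 (25.7%). Without HG replicate 3 the HCC1500 share was 75% (58.5%). LFNG, which adds sugars to Notch receptors, fell from 640 ± 79.9 to 343 ± 26.7 in MDA-MB-175 (adjusted p = 5.9e-07) and from 967 ± 45.8 to 419 ± 18.4 in ZR-75-30 (adjusted p = 5.6e-13). NUMB, a Notch inhibitor, rose in MDA-MB-175 by 0.16 ± 0.04 (adjusted p = 0.009) and the receptor NOTCH2 rose in ZR-75-30 by 0.27 ± 0.04 (adjusted p = 1.9e-05). In HCC1500 the ligand DLL4 had low means of 2.48 ± 0.568 and 11.5 ± 4.84, and HEY2, a target, fell from 86.7 ± 8.29 to 49.3 ± 13.5 (adjusted p = 0.014).

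Of the Wnt genes, 6 of 23 rose and 6 fell in ZR-75-30, and 4 of 23 rose and 3 fell in MDA-MB-175. In HCC1500 limma called 0 of 23 higher and 5 lower, and without HG replicate 3 it called 5 higher and 8 lower. With all libraries, 1 was higher at an unadjusted p under 0.05 and 2 were by edgeR. Calls by limma covered 52.2% in ZR-75-30 (all genes 46%), 30.4% in MDA-MB-175 (25.7%) and 21.7% in HCC1500 (20.5%). Without HG replicate 3 the HCC1500 share was 56.5% (58.5%). The receptor FZD7 rose in MDA-MB-175 from 47.7 ± 9.73 to 64.6 ± 7.44 (adjusted p = 0.033) and in ZR-75-30 from 40 ± 10.5 to 75.2 ± 6.35 (adjusted p = 0.00015). FZD1 fell in ZR-75-30 by 0.82 on the log2 scale (adjusted p = 7.2e-07), and ZNRF3, which removes such receptors, fell in MDA-MB-175 by 0.41 (adjusted p = 0.00056). The ligand WNT5A fell in HCC1500 from 145 ± 10.4 to 65.5 ± 5.48 (adjusted p = 0.00022).

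Of the Hippo pathway and YAP target genes, 9 of 20 rose and 6 fell in ZR-75-30, 7 of 18 rose and 1 fell in HCC1500 (12 and 4 without HG replicate 3), and 8 of 21 rose and 1 fell in MDA-MB-175. The called share was 75% in ZR-75-30 (all genes 46%), 44.4% in HCC1500 (20.5%) and 42.9% in MDA-MB-175 (25.7%). Without HG replicate 3 the HCC1500 share was 88.9% (58.5%). CTGF, a YAP target, rose in ZR-75-30 from 75.6 ± 9.63 to 248 ± 9.63 (adjusted p = 2.1e-11), while F3, tissue factor, fell there from 100 ± 13.5 to 58.5 ± 2.57 (adjusted p = 9.9e-06). ANKRD1 had low means of 6.14 ± 1.41 and 13.1 ± 2.79 in MDA-MB-175, and CYR61 fell there by 0.22 on the log2 scale (adjusted p = 0.0082). LATS2, a kinase that restrains YAP, rose in HCC1500 from 25.4 ± 3.34 to 63 ± 12.9 (adjusted p = 0.0019), and AMOTL1 fell there from 49.9 ± 2.43 to 29.7 ± 7.48 (adjusted p = 0.022).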

How the data were processed

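RNA of 24 cultures was sequenced on an Illumina HiSeq. Per their methods, the authors used Trimmomatic for trimming and TopHat for alignment against hg19 (Ensembl v70), while the processing notes also name hg38 and edgeR. The values they deposited are a signal per gene and sample, whose unit is not given in the sources used here. Dividing a sample's values by the smallest nonzero one gave whole reads (within 0.05 reads) for 100.0% of values in every sample. In 9 lines the symbol was split over cells, and these were read from the end.

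Each line was fitted on its 8 samples with limma 3.58.1 (R 4.3.3) on log2(value + 1), the variance prior following intensity. Genes reaching 0.5 in 4 or more samples were tested. A Benjamini-Hochberg adjusted p under 0.05 made a call. All adjusted p-values are from limma. A model of 6 group means on 24 samples compared lines and, by an F test, their glucose changes. On this scale, changes of weakly expressed genes are understated. The code was tested on simulated data. edgeR 4.0.16 and DESeq2 1.42.0 were alternatives.

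The genes, lists, naming rule and tests were chosen with earlier results of these data known. From each list and line the text names the largest rise and fall among called genes without overlap and with a mean of at least 10 in LG or HG, and some genes that this rule picks are not reported here. For CD44, the 3 genes with the highest r were named. Gene coordinates are GRCh37 (GENCODE 44, lifted), and promoters and motifs come from RefSeq on GRCh38.p14. Whether counting used strand is not given in the sources used here. Exons of CD44, ITGA6, SOX4 and KLF4 share 154, 351, 168 and 357 bases with genes on the other strand, and PROM1 shares 166 bases with FGFBP2.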

Additional observations from a re-analysis of the deposited data

Results flagged for a closer look

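In groups of 4 cultures, a culture is singled out when its gap to the nearest other culture is too large a share of the group's range (Dixon's critical value). Chance singles out about 1 in 20 groups, and 60 were checked. In HCC1500 at HG, replicate 3 was singled out in EPCAM (2247, the others 1318 to 1364), KLF4 (105, the others 72.1 to 76.1) and the CD24P4 row (232, the others 349 to 353). The remaining cases were ITGA6 in MDA-MB-175 at LG (82 in replicate 3, the others 99.1 to 101), SOX4 in ZR-75-30 at LG (299 in replicate 4, the others 284 to 285) and KLF5 in ZR-75-30 at LG (327 in replicate 2, the others 290 to 294).

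The glucose change differed between the 3 lines by the interaction F test for 6 of the 9 genes and for the CD24P4 row. The highest minus the lowest log2 change over the lines was 2.05 for CD44, 1.21 for KLF5, 1.08 for KLF4, 0.62 for SOX4, 0.59 for SOX9 and 0.53 for ITGA6, and 1.19 for the CD24P4 row. These calls describe genes chosen with the changes known, and 29.3% of all genes were called in the same test.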

How the results depend on the processing

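Counts for the 3 lines are given in the order MDA-MB-175, then ZR-75-30, then HCC1500. No called change of a named gene turned its direction under any alternative run. HCC1500 HG replicate 3 decided the HCC1500 counts. Without it, 7 of the named genes instead of 4 and 109 other stemness genes instead of 50 were called. Over all genes, the share called went from 20.5% to 58.5% (3350 to 9504 genes). Estimated sample weights gave 7 and 106, with 9436 of all genes called. A pair of additions made after seeing the data left HG replicate 3 out, and neither called ITGA6. With median-of-ratios scaling the counts were 6 and 103 (9242 of all genes), and with edgeR's TMM factors 6 and 105 (9112). Leaving out 1 culture at a time gave 4 to 5, 6 to 6 and 4 to 7 named genes and 61 to 82, 74 to 79 and 37 to 109 other genes in the 3 lines. Over all genes, these fits called 3529 to 5038, 6746 to 7135 and 2015 to 9504. The fit on all 24 samples lost the calls of EPCAM and PROM1 in ZR-75-30, and called 7 named genes in HCC1500 and 41 instead of 74 other genes in MDA-MB-175. Of all genes, that fit called 5842 instead of 3350 in HCC1500 and 2011 instead of 4368 in MDA-MB-175. An adjusted p under 0.01 left 30 other genes in HCC1500, and 1620 of all genes there. Asking also for a change of at least 1 log2 unit left 0, 1 and 2 named genes and 3, 11 and 12 other genes in the 3 lines. Of all genes it left 381, 1040 and 910.

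The replicate number, which the titles share across conditions, was fitted as a block. Deviations of same-numbered cultures had mean correlations of 0.04, 0.01 and 0.02 in the 3 lines, so the number was not taken as a pairing. The replicate block called 5, 6 and 4 named genes and 76, 83 and 36 other genes in the 3 lines. Over all genes it called 4525 in MDA-MB-175 and 7542 in ZR-75-30, and it lowered the HCC1500 count from 3350 to 1964.

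Count tests on the recovered reads (edgeR, TMM factors) called 4402, 7397 and 3576 of all genes in the 3 lines, against 4368, 7290 and 3350 by limma. EPCAM in HCC1500 was called by edgeR and DESeq2, SOX4 in HCC1500 by DESeq2 and not by edgeR, and SOX9 in MDA-MB-175 by edgeR and not by DESeq2. With no filter on low values, limma called SOX4 in HCC1500. Without HCC1500 HG replicate 3, 9 named genes instead of 8 were called between HCC1500 and ZR-75-30 at LG and in each pair of lines at HG, the addition being EPCAM. Depth limits PROM1 in HCC1500 and SOX2 in ZR-75-30, which had at most 4 reads per culture.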

Other observations

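CD44 in HCC1500 at LG varied less between cultures than counting alone would give. Its SD over 4 cultures was 0.286% of the mean, whereas the counting SD of its 2895 to 3918 reads averaged 1.74% of the mean. Over all genes, by contrast, every pair of HCC1500 LG cultures differed by more than counting, with a chi-square per gene of 1.89 to 2.85, so they were kept as 4 samples. Pairs that included HCC1500 HG replicate 3 had 85.4 to 94 per gene, and the other pairs of all groups had 1.83 to 7.69.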
